A study of Mus musculus with 22 samples.

Results

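Cardiac muscle genes of the lung were followed in whole right lung tissue of mice that had received multiwalled carbon nanotubes. The 10 genes Myh6, Myl4, Myl7, Nppa, Tnnt2, Tnni3, Actc1, Sln, Ryr2 and Mybpc3 were chosen by name from 20018 genes that the array's RefSeq accessions could be matched to. They were found on 11 probes, 1 for each gene and 2 for Myh6, whose brighter probe was used. No filter on the response to the dose was used, but earlier results of these data were known when the genes were chosen. All 10 were expressed by the detection rule given below.

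Female C57BL/6 mice, 8 weeks old, received a single intratracheal instillation of 18, 54 or 162 µg Mitsui7, a commercial multiwalled carbon nanotube, and the lungs were taken after 24 h. Control mice received the vehicle, saline with bronchoalveolar lavage fluid, by the same route and under the same anaesthesia. There were 5 control lungs, 6 lungs at 18 µg, 5 at 54 µg and 6 at 162 µg, each from 1 mouse and on 1 array. The RNA of a lung carried the dye Cy5. It shared its array with a reference from mouse cell lines that carried Cy3, and the log2 of Cy5 over Cy3 on the same spot is called the log2 ratio here. No deletion or transgene was involved, and how much tissue near the heart was frozen with the lobes is not given in the sources used here.

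In mice a sleeve of cardiac muscle runs from the left atrium along the pulmonary veins into the lung. Its cells contract with the heart and use proteins of heart muscle, among them the α myosin heavy chain Myh6. Others are the atrial light chains Myl4 and Myl7, the calcium pump regulator Sln and the hormone precursor Nppa. In a piece of whole lung these cells are a small part of the tissue, and in such bulk RNA fewer cells of a type and less RNA per cell cannot be told apart.

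The sequences just upstream of the transcription start are shown for some of the genes. Whether they bear on the variation from lung to lung (below) was not tested. Shown are those of the 3 members with a CArG box or MEF2 site, and of Nppa, which had the most matches. These were picked after the matches were seen. RefSeq promoter entries on GRCm38.p6 were matched for 9 of the 10 genes, with 2 entries for Tnnt2. Sln had no entry. In the 150 bases before the start, read 5′ to 3′ on the strand of the gene, capitals mark the CArG box of serum response factor, the MEF2 site, GATAA (GATA factors), AAGTG (the core bound by Nkx2-5) or TATAAA, on either strand. The stretches lie at chr2:114052876-114053025 on the minus strand (Actc1), chr11:5898783-5898932 on the minus strand (Myl7), chr2:91117994-91118143 on the plus strand (Mybpc3) and chr4:148000572-148000721 on the plus strand (Nppa).
Actc1: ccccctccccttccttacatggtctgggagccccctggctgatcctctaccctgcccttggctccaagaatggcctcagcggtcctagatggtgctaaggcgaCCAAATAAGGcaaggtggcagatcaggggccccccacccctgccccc
Myl7: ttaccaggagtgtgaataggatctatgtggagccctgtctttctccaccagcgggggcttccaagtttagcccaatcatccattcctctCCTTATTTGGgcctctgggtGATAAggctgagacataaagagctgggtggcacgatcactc
Mybpc3: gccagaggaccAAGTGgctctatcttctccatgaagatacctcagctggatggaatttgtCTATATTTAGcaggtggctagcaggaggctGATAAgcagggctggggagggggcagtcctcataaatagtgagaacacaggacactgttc
Nppa: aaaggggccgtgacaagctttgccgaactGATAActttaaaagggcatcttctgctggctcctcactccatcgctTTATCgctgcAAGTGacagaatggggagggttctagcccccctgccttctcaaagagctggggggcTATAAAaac
Over the 250 bases before the start, a CArG box was found for Actc1 (from base -47) and Myl7 (from base -61), against 1.47% of all 32851 promoters. The MEF2 site was found for Mybpc3 (from base -90), against 1.69%. The shorter motifs are frequent everywhere, GATAA in 22.6% and AAGTG in 40.7% of all promoters, and were held by the promoters of 4 and 5 of the members. TATAAA was found for Nppa, against 12.4%. These are matches of letters, and binding was not measured.

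Signal differed between arrays before any gene was considered. The share of probes above the background limit of an array ranged from 48.4% to 83.5%, and on 8 arrays it was under 65% (18 µg replicates 4, 5 and 6, 54 µg replicates 3 and 4, and 162 µg replicates 4, 5 and 6). The mean of the members' ratios, each centred on its own mean over the 22 lungs, was below 0 on 5 of these 8 arrays and above 0 on the other 3. Whether signal had a part in the members' values was not tested beyond leaving these arrays out. The arrays lay on 7 slides of 3 or 4 arrays, and 2 of the slides held no control.

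The cardiac genes differed more between lungs of the same group than most other genes, and limma called none of them at any dose. The standard deviation (SD) of the log2 ratio within groups, pooled over the 4 groups, had a median of 1.85 over the 10 genes, against a median of 0.280 and a 95th percentile of 0.611 over all 16426 expressed genes. From the widest, Sln had 2.75 (rank 3 of 16426), Myh6 2.55 (rank 4), Myl4 2.23 (rank 8), Nppa 2.02 (rank 11), Tnnt2 1.87 (rank 14) and Myl7 1.83 (rank 16). Tnni3 had 1.55 (rank 27) and Mybpc3 1.40 (rank 40), while Ryr2 with 0.64 (rank 686) and Actc1 with 0.60 (rank 891) lay near the 95th percentile. Between the dimmest and the brightest lung, the Cy5 signal of these first 8 genes spanned 32.4-fold (Mybpc3) to 1528-fold (Myh6).

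**Figure D1:**
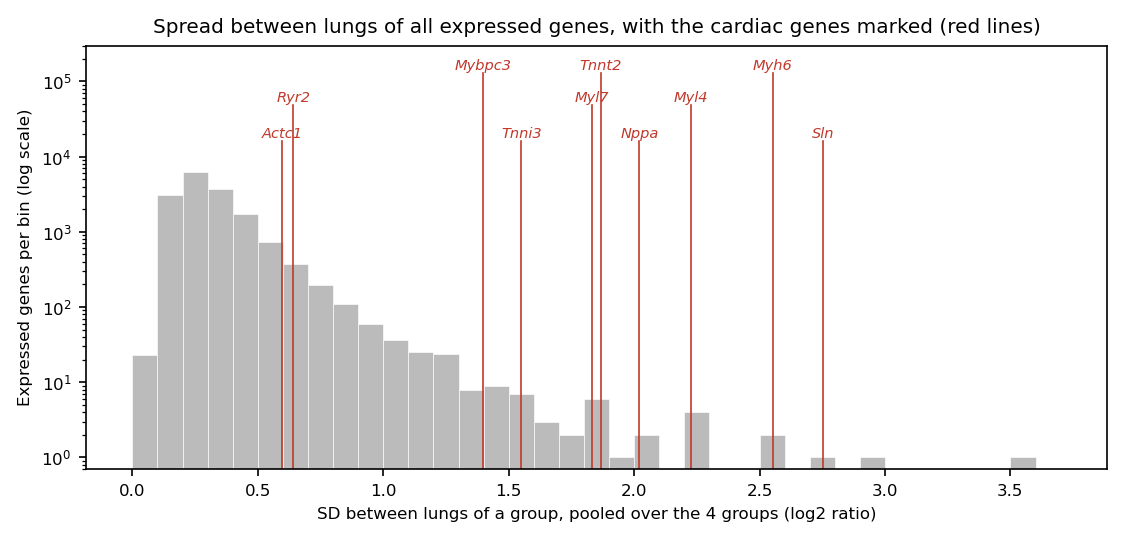
Number of expressed genes (vertical axis, log scale) by the SD between lungs of a group, pooled over the 4 groups (horizontal axis, log2 ratio, bins of width 0.1). Red lines mark the cardiac genes: 8 of them lie between 1.40 and 2.75, where few genes fall, and Ryr2 and Actc1 lie at 0.64 and 0.60, near the 95th percentile of 0.611.

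The same lungs were high or low for nearly all the genes. In 6 lungs all 10 genes lay above their own median over the 22 lungs (control replicate 4, 54 µg replicates 3 and 5, and 162 µg replicates 3, 4 and 5). In another 6 lungs none did (control replicates 1 and 5, 18 µg replicates 5 and 6, 54 µg replicate 4 and 162 µg replicate 2). High and low lungs were therefore found among controls, at 54 µg and at 162 µg, while at 18 µg no lung had all 10 genes above the median. The mean centred ratio of the 10 genes ran from -2.13 (control replicate 1) to 2.72 (control replicate 4) in controls, from -2.09 to 0.89 at 18 µg, from -2.07 to 2.16 at 54 µg and from -2.05 to 1.61 at 162 µg.

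**Figure D2:**
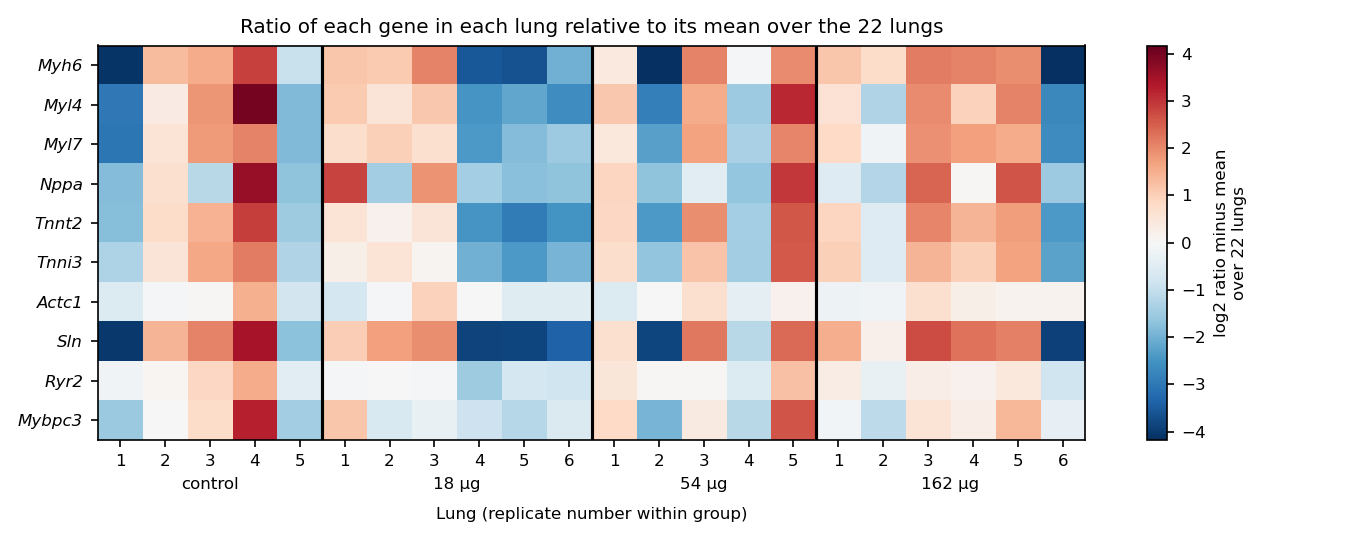
Log2 ratio of each gene (rows) in each lung (columns, numbered within the 4 groups) minus the gene's mean over the 22 lungs; red is above and blue below that mean. All 10 genes lie on the same side of their means in 11 of the 22 lungs, and control replicate 4 is the brightest lung for all 10 genes in Cy5 signal.

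For the 45 pairs of members, Pearson's r across the 22 lungs ranged from 0.47 (Actc1 with Ryr2) to 0.99 (Tnnt2 with Tnni3), with a median of 0.82, and 32 pairs exceeded 0.7. Spearman's rho ranged from 0.42 to 0.98. In permutation tests with 100000 resamples, adjusted over the 45 pairs by the method of Benjamini and Hochberg, the highest adjusted p was 0.0293 for r and 0.0507 for rho. After group means were taken off r had a median of 0.83, and after slide means were taken off 0.86. Without the 2 lungs farthest from the median of the first gene of a pair, the median r was 0.80, and 5 pairs, 4 of them with Actc1, fell below 0.5. The points share lungs and arrays, and so also the signal and normalization of each array.

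The thick filament genes encode the motor and its regulators. Myh6, the α myosin heavy chain, had log2 ratios of 0.35, 5.76, 5.97, 7.27 and 3.51 in the 5 control lungs. At 18 µg they ran from 0.79 to 6.52 with a median of 3.98, at 54 µg they were 4.83, 0.28, 6.51, 4.40 and 6.39, and at 162 µg they ran from 0.26 to 6.57 with a median of 5.98. Every group held lungs close to 0 or 1 and lungs above 5, and the groups overlapped over nearly the whole range. The Cy5 signal was 118 in control replicate 1 and 148242 in control replicate 4. Fitted in limma with slide in the model, Myh6 had log2 fold changes against control of -0.83, 0.99 and 0.67 at the rising doses, with standard errors (SE) of 1.38, 1.48 and 1.38 and adjusted p of 0.844, 0.934 and 0.886. The second, dimmer probe of Myh6 (Cy5 67 to 469) had log2 fold changes of -0.79, -0.02 and -0.27. Myosin heavy chains are close in sequence, so a part of the signal of either probe could come from a related gene.

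Myl4, the atrial essential light chain, had log2 ratios of -0.53, 2.79, 4.28, 6.44 and 0.60 in controls. It ran from -0.12 to 3.56 (median 1.64) at 18 µg, was 3.59, -0.38, 3.99, 0.93 and 5.59 at 54 µg, and ran from -0.23 to 4.53 (median 3.23) at 162 µg. Controls alone spanned more than any dosed group, and no dosed lung lay outside the range of the controls. Its log2 fold changes were -1.03, 0.85 and 0.13 at the rising doses, with standard errors of 1.19, 1.28 and 1.19.

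Myl7, the atrial regulatory light chain, had group means of 3.34 ± 2.24 (SD, n = 5) in controls and, at the rising doses, 2.88 ± 1.51 (SD, n = 6), 3.53 ± 1.87 (SD, n = 5) and 3.96 ± 1.72 (SD, n = 6). Mybpc3, cardiac myosin binding protein C, had -1.50 ± 1.96 (SD, n = 5), -2.11 ± 0.82 (SD, n = 6), -1.55 ± 1.79 (SD, n = 5) and -1.58 ± 0.85 (SD, n = 6). For both genes the difference between any group means was smaller than the SD of the control lungs. Mybpc3 reached 1.54 in control replicate 4, where its Cy3 signal was the lowest, and lay between -3.26 and -0.93 in the other controls. The Cy5 signal of Mybpc3 ran from 82 to 2659 and was well above background in 19 of 22 lungs. In control replicates 1 and 5 it was 124 and 108, at 1.51 and 1.43 times the background limit. For Myl7 Cy5 ran from 102 to 8968, and Cy3 was well above background on 12 of 22 arrays. Low ratios of both genes can thus rest on signal near background.

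The thin filament genes set when the muscle contracts. Tnnt2, cardiac troponin T, had log2 ratios of -0.14, 2.41, 3.11, 4.52 and 0.15 in controls, and ran from -1.29 to 2.22 (median 0.51) at 18 µg. At 54 µg they were 2.49, -0.75, 3.59, 0.22 and 4.22, and at 162 µg they ran from -0.74 to 3.69 (median 2.80). At 18 µg 3 of 6 lungs, replicates 4, 5 and 6, lay below all controls, and the other 3 within their range; those 3 low lungs were on arrays of low signal. Its log2 fold change at 18 µg, the lowest of the members, was -1.53 (SE 0.97, 95% confidence interval -3.58 to 0.52, adjusted p = 0.504).

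Tnni3, cardiac troponin I, also had these 3 lungs below all controls at 18 µg. Its log2 fold change there was -1.25, with an SE of 0.85 and an adjusted p of 0.542. At 54 µg 2 lungs lay below all controls and 1 above, and at 162 µg 1 lay below. Actc1, cardiac α actin, had log2 ratios of 2.20, 2.70, 2.82, 4.26 and 2.02 in controls. It lay between 2.06 and 3.76 at 18 µg, between 2.22 and 3.45 at 54 µg, and between 2.59 and 3.44 at 162 µg. All dosed lungs lay within the range of the controls, and its log2 fold changes of -0.21, 0.11 and -0.02 had the smallest standard errors of the members (0.17, 0.18 and 0.17).

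Of the genes of calcium handling, Sln (sarcolipin, which restrains the calcium pump of the sarcoplasmic reticulum) had log2 ratios of -0.11, 5.34, 6.00, 7.36 and 2.23 in controls. At 18 µg it ran from 0.06 to 5.88 (median 2.75), at 54 µg it was 4.58, 0.10, 6.14, 2.78 and 6.30, and at 162 µg it ran from 0.03 to 6.66 (median 5.74). Its Cy5 signal passed the background limit in 19 of 22 lungs, from 73.5 in control replicate 1 to 37412.5 in control replicate 4. A low lung thus had little more than background on this probe, in controls as at the doses. The Cy3 signal of Sln was well above background on 13 of 22 arrays.

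Ryr2, the calcium release channel, had log2 ratios of 0.70, 0.94, 1.71, 2.41 and 0.41 in controls and 0.81, 0.86, 0.80, -0.64, 0.14 and 0.04 at 18 µg. At 18 µg 3 lungs lay below all controls and 3 within their range. The log2 fold change of -0.81 (SE 0.35, 95% confidence interval -1.55 to -0.07) had an unadjusted p of 0.0338 and, over all probes, an adjusted p of 0.273. The Ryr2 signal was dim, at 63 to 412 in Cy5, above the limit in 3 of 6 lungs at 18 µg, and well above background in Cy3 on 0 of 22 arrays, so its ratio is set against a reference near background. The 3 lungs below all controls, replicates 4, 5 and 6, were on arrays with under 65% of probes above the limit.

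Nppa, the precursor of atrial natriuretic peptide, a hormone that lowers blood pressure and volume, had log2 ratios of -0.09, 2.41, 0.57, 5.34 and 0.05 in controls and 4.56, 0.26, 3.58, 0.29, -0.03 and 0.03 at 18 µg. At 54 µg they were 2.61, 0.05, 1.28, 0.12 and 4.69, and at 162 µg 1.20, 0.49, 4.15, 1.78, 4.34 and 0.19. Most lungs lay low, and each group held 1 or 2 lungs above 3. In 18 µg replicates 4, 5 and 6 the Cy5 signal was 97, 95 and 90, at 1.24, 1.24 and 1.13 times the background limit. A low ratio of Nppa can thus rest on lung signal near background. Its log2 fold changes were -0.28 (SE 0.97), 0.77 (SE 1.03) and 0.68 (SE 0.97). The Nppa probe was printed on 10 spots of each array. Over the spots of 1 array, which share a labelling and a hybridisation and so show spot noise alone, the SD of log2 Cy5 had a median of 0.110 and was at most 0.254. The SD of log2 Cy5 between lungs of a group, which also holds the brightness of the arrays, was 2.85.

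**Figure D3:**
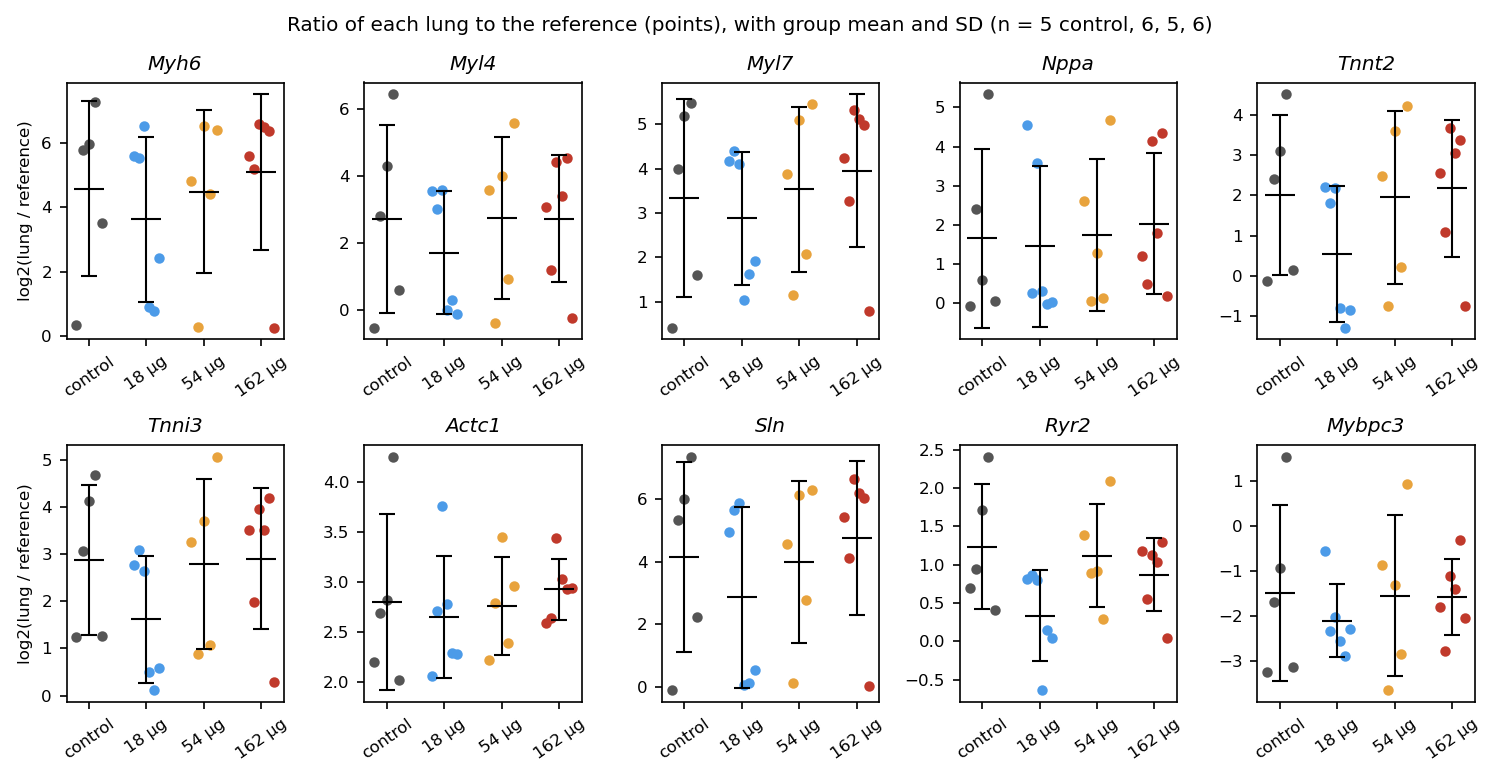
Log2 ratio of lung to reference for each cardiac gene in each lung (points) by group (5 control lungs, 6 at 18 µg, 5 at 54 µg and 6 at 162 µg), with the group mean and SD as a line with bars; vertical scales differ between panels. The groups overlap in every panel, as for Myh6, which ran from 0.35 to 7.27 in controls and from 0.26 to 6.57 at 162 µg.

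Against control, limma called 0 of the 10 genes at each dose (adjusted p of at most 0.05 and at least 1.5-fold), where 1.47% of expressed probes were called at 18 µg, 0.248% at 54 µg and 5.06% at 162 µg. At an unadjusted p of 0.05, 1 of the 10 passed at 18 µg (Ryr2), 0 at 54 µg and 0 at 162 µg. All 10 log2 fold changes were below 0 at 18 µg, with a median of -0.86, all 10 were above 0 at 54 µg, with a median of 0.69, and 7 of 10 were above 0 at 162 µg, with a median of 0.20. Over all expressed probes these medians were -0.01 at each dose. The sign counts hold for the fit with slide in the model. Without a slide term 0, 3 and 8 of the 10 genes were above 0 at the rising doses. The members' median standard error of 0.97 at 18 µg compares with 0.13 over all expressed probes. The genes moved together from lung to lung, so their common sign is not 10 separate observations. Between 162 and 18 µg all 10 were higher at 162 µg, with a median difference of 1.12 and a lowest adjusted p of 0.357, and 0 were called, against 3.45% of expressed probes.

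**Figure D4:**
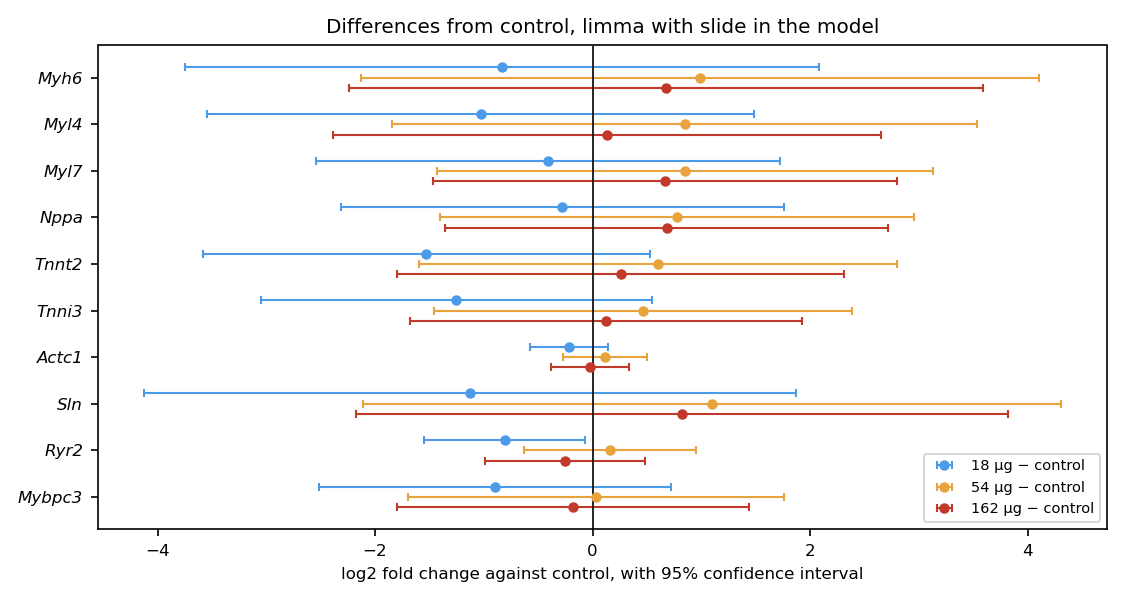
Log2 fold change of each cardiac gene against control (horizontal axis) at 18, 54 and 162 µg, with 95% confidence intervals from limma with slide in the model. All intervals include 0 except that of Ryr2 at 18 µg (-1.55 to -0.07), and those of Sln reach from -4.13 to 4.31.

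The sign of the medians at 54 and 162 µg turned when single lungs were left out, and that at 18 µg did not (-1.77 to -0.18). The median at 54 µg was -0.26 without control replicate 1 and -0.01 without 54 µg replicate 5. The median at 162 µg was -0.28 without control replicate 1, -0.03 without control replicate 5, -0.02 without 18 µg replicate 1 and -0.33 without 162 µg replicate 5. Without the 8 arrays of low signal, which left 5 controls and 3 lungs at each dose, the medians were -0.21, -0.72 and -0.21.

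Lungs on the same slide as a control differed from it in both directions. At 18 µg the median difference over the 10 genes was 3.23, -0.03, -1.68 and -0.29 on the 4 slides that held both groups. At 54 µg it was 2.66, -3.56 and 0.31 on 3 slides, and at 162 µg 0.12, -0.82, -1.86 and 3.08 on 4 slides. The slide of control replicate 1, the lowest control, gave the highest differences at 18 and 54 µg, and that of control replicate 5 the highest at 162 µg.

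For some of the genes the reference channel changed with the lung channel of the same spot. The Cy3 signal of Myh6 was 33 to 87 on the 5 arrays with the dimmest Cy5 and 330 to 1383 on the 5 with the brightest, although the same reference RNA was put on every array. For Actc1 it was 196 to 452.5 against 652.5 to 2181, and for Nppa 51.5 to 111 against 86 to 910. For Myl4 both ranges overlapped widely, at 798 to 1473.5 against 402 to 1910.5, as they did for Mybpc3. Where the reference signal rises with the lung signal the log ratio is smaller than the ratio of the lung signals: Actc1 spanned 52.0-fold in Cy5, and its log2 ratio spanned 2.24. A low reference signal makes the log ratio larger. On control replicate 4 the Cy3 signal was the lowest of the 22 arrays for Myl4 (402), Tnnt2 (236), Tnni3 (43), Ryr2 (19) and Mybpc3 (236). For Myh6 it was 330 there, within a range of 33 to 1383. The part of the array's own brightness in these signals was not tested.

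**Figure D5:**
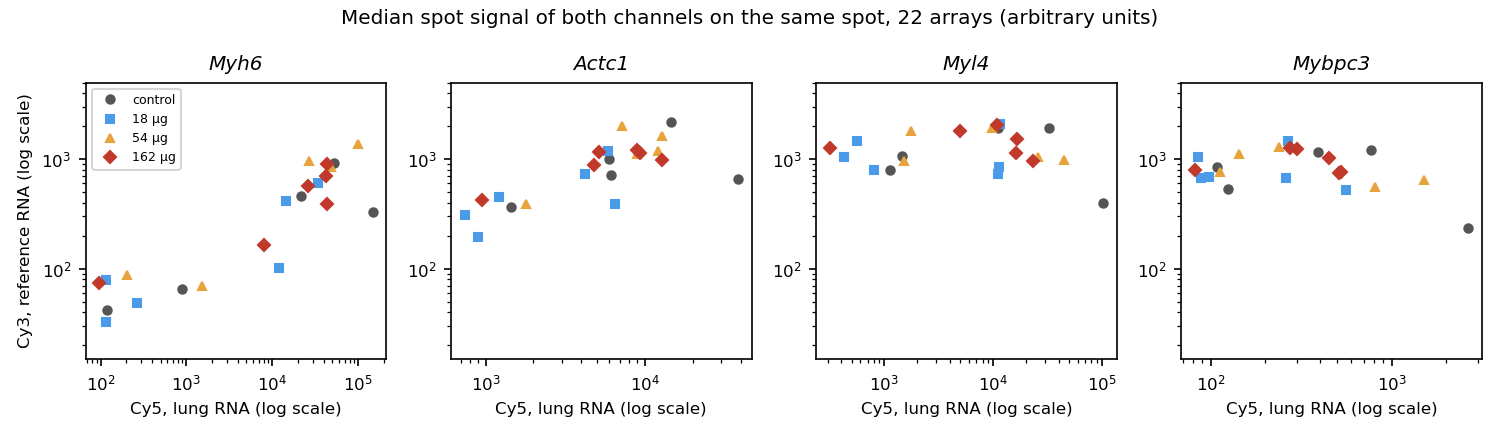
Median Cy3 signal of the reference against median Cy5 signal of the lung on the same spot, in arbitrary units on log axes, for 4 genes on 22 arrays, with groups by colour and symbol. For Myh6 the Cy3 signal is 33 to 87 on the 5 arrays dimmest in Cy5 and 330 to 1383 on the 5 brightest, while for Myl4 the corresponding ranges of 798 to 1473.5 and 402 to 1910.5 overlap.

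Genes outside the 10 followed the same lungs. By Pearson's r over the 22 lungs with the mean centred ratio of the members, the most alike of 16106 other expressed genes were Mb (myoglobin, 0.98), Myh8 (0.97), Tpm1 (tropomyosin, 0.97), Myoz2 (0.96), Actn2 (α actinin of the Z disc, 0.95), Csrp3 (0.95), Ttn (titin, 0.95), Mybphl (0.94), Ckmt2 (mitochondrial creatine kinase, 0.93) and Tnnc1 (cardiac troponin C, 0.93). A total of 22 genes exceeded 0.9. Myh8 is a close relative of Myh6, and its probe could share signal with it.

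Further muscle genes were taken from lists. Of 22 expressed other sarcomere genes 1 was called, Ankrd1, a stretch-responsive repeat protein, which rose at 162 µg by 1.55 (SE 0.35, adjusted p = 0.0148), and had r of 0.64 with the members; the median log2 fold change of the list there was -0.01. The other genes of the list with the largest differences at 162 µg did not pass: Myom1, of the M band, had 0.88 (adjusted p = 0.0521), Myh7, the β myosin heavy chain, -0.66 and Cmya5 -0.46. Of 16 expressed genes of calcium handling and excitation 1 was called, Fkbp1b, a subunit bound to Ryr2, which rose at 162 µg by 1.498 (SE 0.25, adjusted p = 0.00218). It followed the members little, with r of 0.19. Pln, which inhibits the calcium pump, had -0.50, Gja1, a gap junction protein, 0.42 and Kcnj5, a potassium channel subunit, -0.32, and none of these passed. The background share called at 162 µg against control was 5.06%, and between 162 and 18 µg it was 3.45%. In the latter comparison no member was called, and 3 of the sarcomere genes were. Myom1 (1.52, adjusted p = 0.00179), Ankrd1 (1.42, adjusted p = 0.0206) and Des (desmin, 0.61, adjusted p = 0.0139) were higher at 162 µg. Of the calcium handling and excitation genes 2 were called in that comparison, Fkbp1b, which was higher (1.77, adjusted p = 0.00058), and Gja5, an atrial and arterial gap junction protein, which was lower at 162 µg (-1.21, adjusted p = 0.0108). Des and Gja5 lie outside the naming rule and were named after their values were seen.

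Of 12 genes of muscle energy supply none was called by limma at any dose against control, although their median SD of 1.10 and median r of 0.86 with the members were high. Their log2 fold changes at 162 µg included 1.22 for Pdk4, which restrains glucose oxidation, 0.75 for Slc2a4, the insulin-regulated glucose transporter, 0.75 for Fabp3, a fatty acid carrier, and -0.60 for Ckm, muscle creatine kinase. Between 162 and 18 µg 1 of them was called, Pdk4, which was higher at 162 µg by 2.43 (adjusted p = 0.00431). The background share called in that comparison was 3.45%, and against control it was 1.47%, 0.248% and 5.06% at the rising doses. At those shares lists this short would hold few calls. Of the 6 genes of the natriuretic peptide axis 0 were called, with a median r of 0.02. Their values at 162 µg included -0.74 for the clearance receptor Npr3, 0.10 for Corin, the protease that activates the Nppa product, 0.10 for Nppb and 0.03 for the growth factor Bmp10. Of 9 expressed cardiac transcription factors 0 were called, with a median r of -0.12, and values at 162 µg of 0.41 for Smarcd3, 0.26 for Tbx5, -0.22 for Nkx2-5 and -0.15 for Hand2. The highest r of these expressed factors was 0.12. Tbx20, a factor of the heart that was not expressed by the detection rule, was above the limit in 12 of 22 lungs and had r of 0.88. Tbx20 lies outside the naming rule.

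Markers of other muscle were set beside the members. Of the ventricular markers, the light chain Myl2 was close to background in all lungs (Cy5 71 to 104, above the limit in 12 of 22). Myl3, another light chain, was above the limit in 22 of 22 lungs (Cy5 80.5 to 4666) and had r of 0.93 with the members. Myh7 was also above it in 22 of 22 lungs (Cy5 319 to 4313), with r of 0.07. The fast skeletal myosins were close to background, with Myh4 above the limit in 0 of 22 lungs, Myh1 in 1 and Myh2 in 6. Casq1 was above it in 5. The skeletal list of 16 genes had a mean log2 ratio between -0.97 and 0.10 over all lungs, and between 9 and 14 of its genes were above the limit in each lung, 12 to 14 in controls and 9 to 12 at 18 µg. Myl1, a fast skeletal light chain, was the skeletal marker that followed the members most, with r of 0.87. The median r of the skeletal markers was 0.19, and the mean log2 ratio of their list had r of 0.68 with the members' mean. Among the 12 expressed genes 0 were called at any dose, against 1.47%, 0.248% and 5.06% of expressed probes at the rising doses. Mybpc2 had 0.52, Tnnt3 -0.51, Tnni2 -0.43 and Acta1 0.40 at 162 µg.

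Of the 10 smooth muscle markers 0 were called at any dose, against 1.47%, 0.248% and 5.06% of expressed probes at the rising doses. These markers followed the members in part, with a median r of 0.47. Their mean log2 ratio ran from 0.97 to 2.13 in controls, from 0.86 to 2.05 at 18 µg, from 1.21 to 2.30 at 54 µg and from 0.95 to 2.25 at 162 µg. Cnn1 had -0.997, Synpo2 -0.94, Myh11 0.37 and Mylk 0.27 at 162 µg. Markers of brown and mediastinal fat, tissue that lies around the great vessels, were themselves unequal between lungs, with a median SD of 1.54 and a median r of 0.69 over 7 expressed genes. Their mean log2 ratio ran from 1.89 to 4.05 in controls, from 0.73 to 4.02 at 18 µg, from 1.33 to 3.92 at 54 µg and from 1.16 to 5.81 at 162 µg, with 0 genes called against control. Ucp1 had 1.12, Fabp4 1.07, Dio2 1.01 and Plin1 0.69 at 162 µg against control. Between 162 and 18 µg, with 3.45% of expressed probes called, only Dio2 of these markers was called, higher at 162 µg (adjusted p = 0.00661). Their part in the members' values was not tested. Erythroid markers, which reflect blood left in the lung, had a median r of 0.06 over 5 expressed genes, 0 called, and values at 162 µg of 0.13 for Alas2, 0.12 for Hbb-b2 and 0.03 for Slc4a1.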

How the data were processed

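The authors hybridised Cy5 lung RNA and Cy3 reference RNA to Agilent arrays, and the deposited scanner files hold the intensity of each spot per channel (Feature Extraction 10.7.3.1). The deposited log2 ratio table, whose normalization is not given in the sources used here, served as an alternative. Median intensities without background subtraction were normalized within each array by loess (span 0.3), and spots of a probe were summarised by their median. Probes were named through RefSeq accessions, and a gene by its brightest probe. Dose and slide were fitted over 22 arrays in limma 3.58.1 (R 4.3.3), 12 residual degrees of freedom, with p adjusted over 55681 probes by Benjamini and Hochberg. The fit was tested on simulated data. Calls needed an adjusted p no higher than 0.05, a 1.5-fold difference and expression. The background limit of an array was the trimmed mean (5%) plus 3 trimmed SD of its 308 negative control spots, and a probe was expressed if Cy5 passed it in 80% or more of any group (39494 probes, 70.9%). The number of arrays limits the precision.

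Members and lists were chosen with earlier results of these data known. Named were all members, genes of each list called at any dose plus the 4 expressed with the largest difference at 162 µg, the 10 most alike genes, and defining markers of other muscle. Alternatives were other background correction, centring, channel, table, slide terms, a replicate block, expression filters, probe summaries and leaving out each mouse; leaving out arrays of low signal was added after seeing the data. Smpx, Hbb-b1 and Epb4.2 could not be matched to a probe. One gene that the naming rule would add is not reported here.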

Additional observations from a re-analysis of the deposited data

Results flagged for a closer look

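In 40 groups of lungs, 1 for each of the 10 genes in each of the 4 groups, the highest or lowest lung was compared with the others by Dixon's gap ratio, which flags about 1 in 20 groups by chance. It flagged 2. Myh6 at 162 µg was 0.26 in replicate 6 and 5.197 in the next lowest lung, and Mybpc3 at 18 µg was -0.55 in replicate 1 and -2.03 in the next highest.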

How the results depend on the processing

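No alternative called any member at any dose, by limma, in 12 alternatives or when each mouse was left out. The sign of uncalled log2 fold changes turned in 61 of 360 values, which are given here. With median centring they were, at 54 µg Mybpc3 -0.027, and at 162 µg Myl4 -0.13, Tnnt2 -0.041 and Tnni3 -0.085. Without normalization they were, at 162 µg Myl4 -0.15, Tnnt2 -0.059 and Tnni3 -0.10. With the Cy5 channel alone they were, at 18 µg Nppa 0.051, and at 54 µg Ryr2 -0.13. With the deposited table they were, at 162 µg Tnni3 -0.026. Without a slide term they were, at 54 µg Myh6 -0.093, Tnnt2 -0.056, Tnni3 -0.082, Actc1 -0.037, Sln -0.19, Ryr2 -0.12 and Mybpc3 -0.055, and at 162 µg Actc1 0.13. With slide as a random block they were, at 54 µg Mybpc3 -0.013, and at 162 µg Actc1 0.050. With the replicate block they were, at 18 µg Nppa 0.12, and at 54 µg Myh6 -0.093, Tnnt2 -0.056, Tnni3 -0.082, Actc1 -0.037, Sln -0.19, Ryr2 -0.12 and Mybpc3 -0.055, and at 162 µg Actc1 0.16. With the 2 compared groups alone they were, at 18 µg Myh6 0.38, Myl4 0.27, Myl7 0.70, Nppa 0.17 and Sln 0.44, and at 54 µg Myh6 -0.11, Myl4 -0.075, Myl7 -0.031, Tnnt2 -0.39, Tnni3 -0.49, Sln -0.22, Ryr2 -0.083 and Mybpc3 -0.013, and at 162 µg Myl4 -0.23. Without the arrays of low signal they were, at 18 µg Myh6 0.78, Myl7 0.30, Nppa 0.18 and Sln 0.53, and at 54 µg Myh6 -1.38, Myl4 -0.73, Myl7 -0.62, Nppa -0.014, Tnnt2 -0.92, Tnni3 -0.70, Actc1 -0.062, Sln -1.19, Ryr2 -0.11 and Mybpc3 -0.79, and at 162 µg Myl4 -0.60, Nppa -0.031, Tnnt2 -0.16 and Tnni3 -0.26. The median over the 10 genes, -0.86, 0.69 and 0.20 at the rising doses, was -0.93, -0.055 and 0.15 without a slide term, and 0.040, -0.079 and 0.13 with the 2 compared groups alone. At 162 µg it was -0.063 with median centring and -0.081 without normalization. The causes were not tested.

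When single mice were left out, the fold changes that turned sign covered these ranges. At 18 µg the range was -1.33 to 0.32 for Myl7 and -1.22 to 0.22 for Nppa. At 54 µg the range was -0.43 to 2.75 for Myh6, -0.39 to 2.14 for Myl4, -0.15 to 1.96 for Myl7, -0.24 to 1.36 for Nppa, -0.27 to 1.60 for Tnnt2, -0.24 to 1.35 for Tnni3, -0.053 to 0.22 for Actc1, -0.35 to 2.78 for Sln, -0.11 to 0.44 for Ryr2 and -0.85 to 0.69 for Mybpc3. At 162 µg the range was -0.26 to 1.78 for Myh6, -0.73 to 1.32 for Myl4, -0.19 to 1.18 for Nppa, -0.46 to 1.17 for Tnnt2, -0.56 to 0.94 for Tnni3, -0.18 to 0.13 for Actc1, -0.14 to 2.14 for Sln, -0.50 to 0.0012 for Ryr2 and -0.76 to 0.50 for Mybpc3. The median over the genes ranged from -1.77 to -0.18 at 18 µg, from -0.26 to 1.48 at 54 µg and from -0.33 to 1.07 at 162 µg. The median SD within groups, 1.85, ranged from 1.72 to 1.90 without single mice and from 1.72 to 1.95 over the alternatives of normalization.

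The labels number the mice within each group. Same-numbered mice of different groups gave 31 pairs, whose deviations from the group means over all probes correlated by -0.17 to 0.62, over 0.1 in 20 pairs. On different slides the median was 0.11 for the same number (10 of 20 pairs over 0.1) and -0.08 for different numbers (30 of 137). On the same slide it was 0.27 for the same number and 0.26 for different numbers. The numbers were not taken as a pairing in the main fit. With the replicate block in place of slide the medians were -0.54, -0.055 and 0.54, with 0 members called at each dose.

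Except for Actc1 and Ryr2, the log2 fold changes against control have standard errors from 0.77 (Mybpc3) to 1.52 (Sln). A 2-fold difference between groups was thus not detectable for these genes with 5 or 6 lungs. For Ryr2 a log2 fold change of -0.81 at 18 µg (SE 0.35) was not called by limma either (adjusted p = 0.273). The ratio is set against a reference whose signal on some of these spots rose with the lung signal, and on others lay near background. Cy3 was well above background on 0 of 22 arrays for Ryr2, 12 for Myl7 and 13 for Sln. Signal differed between arrays, and the 8 arrays of low signal all held lungs from the doses. Separate mice are the replicates, and 2 slides held no control.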
